A study of Homo sapiens with 9 samples.

Results

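The genes examined here are 10 whose transcripts are induced by the ERK pathway and most of whose products act back on it, in 3 breast cancer cell lines. They are DUSP4, DUSP5, DUSP6, SPRY1, SPRY2, SPRY4, SPRED1, SPRED2, ETV4 and ETV5, 10 of the 19775 genes that carry a single symbol on the array, and they were taken by gene symbol alone. They are read by 24 of the 54675 probe sets, which are groups of short oligonucleotides against 1 transcript. The cells were grown to near confluence in medium with serum and had no further treatment. MDA-MB-231/GFP/Neo is an ER negative line with mesenchymal features, here a G418-resistant clone that expresses green fluorescent protein (GFP). ZR-75-1/GFP/puro is an ER positive luminal line, here a pool of puromycin-resistant, GFP-expressing cells. B6TC is a GFP-positive, estrogen-independent line, labelled a fusion of these parental lines, that was established from 1 tumor of bone marrow-derived B6 cells in a nude mouse without estrogen. RNA of each line was hybridized to 3 Affymetrix Human Genome U133 Plus 2.0 arrays labelled technical replicates. No separate cultures are named, so p-values measure only the spread between these arrays.

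The ERK pathway carries signals from receptor tyrosine kinases through RAS, RAF and MEK to the kinases ERK1 and ERK2, which enter the nucleus and switch on transcription. Several of the genes that are switched on restrain the same pathway, so their RNA is widely read as a mark of pathway output. DUSP proteins remove phosphate from ERK, Sprouty and Spred proteins act upstream at the level of RAS and RAF, and ETV4 and ETV5 are transcription factors of the PEA3 group of the ETS family that act further downstream. MDA-MB-231 cells are known to carry activating mutations in this pathway. RNA levels do not measure phosphorylated ERK, which was not analysed here.

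The values are log2 expression levels, and 22 of the 24 probe sets, with at least 1 for every gene, reached a level of 6 on 3 or more of the 9 arrays and were tested. Each gene is given by its brightest tested probe set unless another is named. The differences were tested with limma over all 9 arrays and are given with their standard error (SE), and p-values were adjusted over all 21095 tested probe sets. The median level of an array lay between 4.89 and 4.96, and 18536 to 19000 probe sets per array reached 6. All 10 mesenchymal markers were higher in B6TC and MDA-MB-231 than in ZR-75-1 and all 12 luminal markers were lower. ESR1, the ERα gene, at a probe set chosen after its values were seen, was at 10.25, 10.09 and 10.14 in ZR-75-1, at 3.27 to 3.35 in MDA-MB-231 and at 3.50, 3.53 and 4.26 in B6TC. The third B6TC array stood apart in the mean level of the luminal markers, at 7.55 against 6.53 and 6.50 on the other arrays of the line and 11.31 to 11.39 in ZR-75-1. The 6 leukocyte markers measured were below 6 on every array. Poly-A spike-ins, which are added to the RNA before labeling, differed between the lines. Their mean level was lowest in MDA-MB-231 at 5.68, followed by ZR-75-1 at 7.54 and B6TC at 9.08, and the 3′ probe set of ACTB exceeded the 5′ one by 0.32, 0.73 and 0.67 in that order. How far these and the third B6TC array enter the differences was not tested, beyond the values without that array.

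All 10 feedback genes were above ZR-75-1 in B6TC, by log2 differences from 0.72 to 7.57, and 9 of them were at least 2-fold higher. Over all 10751 genes tested, 42.8% were called higher in this comparison and 17.6% were at least 2-fold higher as well. The same 10 genes were higher in MDA-MB-231 than in ZR-75-1, where 42.5% of genes were called higher. Their median difference from ZR-75-1 was 3.83 in B6TC and 4.21 in MDA-MB-231, against −0.0050 and −0.00066 over all genes. These comparisons share the ZR-75-1 arrays. At every member except DUSP5 and SPRED2 the brightest probe set reached the filter level of 6 only in B6TC and MDA-MB-231. The filter thus favoured differences above ZR-75-1, and the counts of 10 are not independent of it. Against MDA-MB-231 the feedback genes moved apart, with 5 higher in B6TC, 3 lower and 2 that did not pass the test. DUSP4, DUSP5, DUSP6, SPRY2 and SPRED1 were higher, where 36.5% of all genes were called higher. SPRY4, ETV4 and ETV5 were lower, where 28.5% were called lower. Nothing particular to the members is read from these counts, and their median difference was 0.18, against 0.036 over all genes. Without the third B6TC array, these calls were the same for all 10 genes in the comparisons with each parental line.

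**Figure D1:**
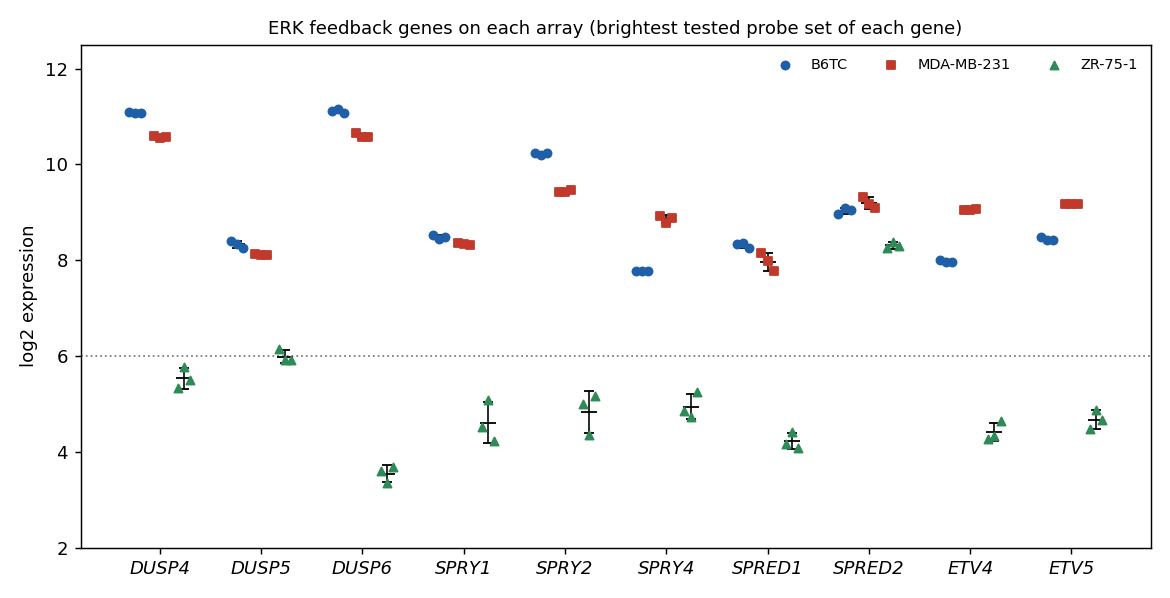
The 10 feedback genes on the x axis with their log2 expression on the y axis. Each symbol is 1 array, with circles in blue for B6TC, squares in red for MDA-MB-231 and triangles in green for ZR-75-1, black bars are the mean and SD of 3 arrays, and the dotted line is the level of 6 used as the filter. The ZR-75-1 arrays are lowest for every gene, and B6TC lies above MDA-MB-231 for DUSP6 and SPRY2 and below it for SPRY4, ETV4 and ETV5.

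DUSP6, the cytoplasmic phosphatase specific for ERK, differed most from ZR-75-1 of the 10 genes. Its level was 11.12, 11.16 and 11.06 on the arrays of B6TC, 10.65, 10.58 and 10.58 for MDA-MB-231 and 3.60, 3.34 and 3.68 for ZR-75-1. The arrays of the 3 lines did not overlap. DUSP6 was above ZR-75-1 in B6TC by 7.57 (SE 0.079, limma adjusted p = 4.06e-13), which was rank 21 from the highest among 10751 genes. It exceeded MDA-MB-231 by 0.52 (SE 0.079, limma adjusted p = 0.000250), a 1.43-fold difference. A second probe set gave 0.51 from MDA-MB-231, whereas the third, 208893_s_at, was at −0.025 (limma adjusted p = 0.892) with the B6TC arrays at 9.90, 10.24 and 9.84 and MDA-MB-231 at 10.00, 10.04 and 10.01. All 3 were higher than in ZR-75-1, by at least 5.20.

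DUSP4, a nuclear phosphatase that acts on ERK and on other MAP kinases, had a similar order of the lines. It was at 11.09, 11.08 and 11.07 on the arrays of B6TC, 10.59, 10.55 and 10.56 for MDA-MB-231 and 5.34, 5.78 and 5.50 for ZR-75-1, with no overlap. The difference from ZR-75-1 was 5.54 (SE 0.091, limma adjusted p = 5.63e-12), and that from MDA-MB-231 was 0.51 (SE 0.091, limma adjusted p = 0.000654). Another probe set of DUSP4 gave 0.52 from MDA-MB-231, and 226034_at gave 0.042 (limma adjusted p = 0.592) with overlapping arrays.
DUSP5, a nuclear phosphatase specific for ERK, had a smaller range. Its level was 8.40, 8.34 and 8.26 on the arrays of B6TC, 8.12 throughout for MDA-MB-231 and 6.14, 5.91 and 5.91 for ZR-75-1. B6TC was above ZR-75-1 by 2.34 (SE 0.067, limma adjusted p = 2.34e-10). The excess of 0.21 over MDA-MB-231 (SE 0.067, limma adjusted p = 0.0185) was at 0.18 without the first B6TC array, where it missed the threshold (limma adjusted p = 0.0705).

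SPRY2 and SPRY4 encode Sprouty proteins, which limit signaling from growth factor receptors to RAS, and they differed from MDA-MB-231 in opposite directions. SPRY2 was at 10.24, 10.20 and 10.23 on the arrays of B6TC, 9.43, 9.42 and 9.46 for MDA-MB-231 and 5.00, 4.34 and 5.16 for ZR-75-1. It was above MDA-MB-231 in B6TC by 0.79 (SE 0.16, limma adjusted p = 0.00192), or 1.73-fold, and above ZR-75-1 by 5.39 (SE 0.16, limma adjusted p = 3.89e-10). SPRY4 was at 7.77 throughout on the arrays of B6TC, 8.93, 8.78 and 8.88 for MDA-MB-231 and 4.85, 4.73 and 5.24 for ZR-75-1. The arrays of the lines did not overlap for either gene. SPRY4 was below MDA-MB-231 in B6TC, at −1.10 (SE 0.11, limma adjusted p = 1.40e-05), with MDA-MB-231 2.14-fold above B6TC, and this was rank 79 from the lowest of 10751 genes. It was higher than in ZR-75-1 by 2.83 (SE 0.11, limma adjusted p = 2.22e-09). SPRY2 and SPRY4 are each read by 1 probe set with their symbol, so no second reading of these differences was had. The SPRY4 values of the 3 B6TC arrays were identical, as were those of 112 of the tested probe sets (0.531%) in this line, and their SD of 0 is no measure of precision.
SPRY1, another Sprouty gene, was at 8.52, 8.45 and 8.49 on the arrays of B6TC, 8.35, 8.33 and 8.32 for MDA-MB-231 and 4.51, 5.07 and 4.23 for ZR-75-1. It was higher than in ZR-75-1 by 3.88 (SE 0.16, limma adjusted p = 4.27e-09). Its difference of 0.15 from MDA-MB-231 fell short of the threshold (95% confidence interval −0.21 to 0.52, limma adjusted p = 0.428), although the B6TC arrays lay above all MDA-MB-231 arrays. The ZR-75-1 arrays, near background, had an SD of 0.43, which enters the shared estimate of the spread. Fitted without the ZR-75-1 arrays, the same difference passed (limma adjusted p = 0.0123), as it did with robust regression (limma adjusted p = 0.000668).

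The sequences before the transcription starts of DUSP6, SPRY2 and SPRY4 are shown because these genes had the largest difference from ZR-75-1 and the opposite differences from MDA-MB-231. They are from the RefSeq table of GRCh38.p14, which held 6 of the 10 members (DUSP6, SPRY1, SPRY2, SPRY4, SPRED1 and SPRED2) with 10 start sites. Each runs 5′ to 3′ over the 250 bases before a start, on the minus strand. Capitals mark CCGGAA, an extended form of the shorter GGAA core that ETS factors bind. SPRY2 has 3 start sites, and the stretch shown was chosen because its window holds CCGGAA. The windows at the other SPRY2 starts do not hold it. The shorter core is left unmarked, since it is in all 10 windows of the members and in 95.5% of all windows on either strand, and the stretches of DUSP6, SPRY2 and SPRY4 hold it 6, 3 and 2 times.
DUSP6, chr12:89352502-89352751: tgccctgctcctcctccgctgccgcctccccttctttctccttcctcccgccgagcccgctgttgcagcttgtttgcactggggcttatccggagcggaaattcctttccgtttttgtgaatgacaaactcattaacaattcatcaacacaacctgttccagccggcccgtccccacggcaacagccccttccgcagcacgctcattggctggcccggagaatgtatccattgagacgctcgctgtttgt
SPRY2, chr13:80341127-80341376: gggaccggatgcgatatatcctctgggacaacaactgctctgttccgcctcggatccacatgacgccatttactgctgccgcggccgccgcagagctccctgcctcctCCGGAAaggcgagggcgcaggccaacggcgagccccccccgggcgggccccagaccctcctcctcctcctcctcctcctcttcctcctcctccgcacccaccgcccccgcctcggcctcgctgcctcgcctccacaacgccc
SPRY4, chr5:142324248-142324497: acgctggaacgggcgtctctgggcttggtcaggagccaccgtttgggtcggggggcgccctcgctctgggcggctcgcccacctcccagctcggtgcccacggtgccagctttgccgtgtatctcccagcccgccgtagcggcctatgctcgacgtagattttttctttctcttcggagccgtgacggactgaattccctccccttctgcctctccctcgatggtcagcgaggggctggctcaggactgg
Windows of 300 bases, with 250 before and 50 after each start, were searched on both strands for CCGGAA, for the AP-1 motif TGACTCA or TGAGTCA and for the CArG box of serum response factor. These motifs do not overlap each other in the windows of the members. CCGGAA was found in 2 of the 10 windows of the members and in 17.2% of all 35116 windows. The match of SPRY2 lies 142 to 137 bases before the start. The other is 67 to 62 bases before a start of SPRY1 on the plus strand. An AP-1 motif was found in 1 window, at a start of SPRED2 on the minus strand, and in 4.95% of all windows. A CArG box was found in none of the 10, and in 1.29% of all. The stretches of 30 bases around the matches of SPRY1 and SPRED2 are shown with the motif in capitals.
SPRY1, chr4:123398307-123398336: tgccctccgcagCCGGAAgggggccgcggg
SPRED2, chr2:65366766-65366795: taaccctcggaTGACTCAtccggtacaatg
A match describes the letters of the window, and binding was not measured.

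SPRED1 and SPRED2 encode Sprouty-related membrane proteins that suppress the activation of RAF. The probe sets of SPRED1 did not give 1 direction against MDA-MB-231, whereas the tested ones of SPRED2 had differences of the same sign and unlike size. SPRED1 was at 8.34, 8.36 and 8.25 on the arrays of B6TC, 8.16, 7.97 and 7.78 for MDA-MB-231 and 4.17, 4.42 and 4.09 for ZR-75-1. It was above ZR-75-1 by 4.09 (SE 0.10, limma adjusted p = 1.14e-10) and above MDA-MB-231 by 0.34 (SE 0.10, limma adjusted p = 0.0153). Without the third MDA-MB-231 array the latter was at 0.25 and did not pass (limma adjusted p = 0.0595). A second probe set of SPRED1 gave 0.052 (limma adjusted p = 0.818). The third, 244439_at, was below MDA-MB-231 in B6TC, at −0.97 (SE 0.073, limma adjusted p = 2.28e-06), with levels of 6.51 on each B6TC array against 7.63, 7.43 and 7.38. Its B6TC values were identical, as at SPRY4, and their SD of 0 is no measure of precision. The direction of SPRED1 between these lines thus depended on the probe set.
SPRED2 was the only member with ZR-75-1 above 6 on all arrays at its brightest probe set. Its level was 8.96, 9.09 and 9.04 on the arrays of B6TC, 9.33, 9.17 and 9.09 for MDA-MB-231 and 8.25, 8.39 and 8.29 for ZR-75-1. The B6TC and MDA-MB-231 arrays did overlap, as 9.09 was reached in both. It was above ZR-75-1 in B6TC by 0.72 (SE 0.069, limma adjusted p = 3.20e-06), the smallest of the 10 differences. From MDA-MB-231 it differed by −0.17, which did not pass (limma adjusted p = 0.0575). Without the third MDA-MB-231 array it was at −0.22 and passed (limma adjusted p = 0.0235). A dimmer probe set, 212466_at, was below MDA-MB-231 in B6TC, at −0.99 (SE 0.12, limma adjusted p = 4.15e-05), with levels of 5.72, 5.98 and 5.84 against 7.03, 6.76 and 6.73. It reached 6 only on the MDA-MB-231 arrays and so passed the filter through the line where it was high, which favoured this direction.

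ETV4 and ETV5 were below MDA-MB-231 in B6TC and well above ZR-75-1. ETV4 was at 8.01, 7.96 and 7.96 on the arrays of B6TC, 9.06, 9.05 and 9.06 for MDA-MB-231 and 4.28, 4.34 and 4.63 for ZR-75-1. The arrays of the lines did not overlap. The difference from MDA-MB-231 was −1.08 (SE 0.081, limma adjusted p = 2.16e-06), with MDA-MB-231 2.11-fold above B6TC and rank 88 from the lowest of 10751 genes. The difference from ZR-75-1 was 3.56 (SE 0.081, limma adjusted p = 4.85e-11). The second probe set of ETV4 was lower than in MDA-MB-231 as well, at −0.72 (SE 0.093, limma adjusted p = 7.53e-05).
ETV5 was at 8.48, 8.43 and 8.42 on the arrays of B6TC, 9.18, 9.17 and 9.18 for MDA-MB-231 and 4.48, 4.87 and 4.66 for ZR-75-1. It was lower than in MDA-MB-231, at −0.73 (SE 0.082, limma adjusted p = 2.89e-05), and above ZR-75-1 by 3.77 (SE 0.082, limma adjusted p = 3.70e-11). Of its 4 tested probe sets, a second was lower than in MDA-MB-231, at −0.64 (limma adjusted p = 0.000383). The others were at 0.24 (limma adjusted p = 0.446) and 0.20 (limma adjusted p = 0.213), and with 230102_at in place of the brightest probe set ETV5 was not called. All 4 were higher than in ZR-75-1, by 1.30 to 4.42.

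Over the 22 tested probe sets of the members, 7 were above MDA-MB-231 in B6TC, 7 were lower and 8 did not pass the test. Among the lower ones, 212466_at of SPRED2 reached 6 only in MDA-MB-231. Of all tested probe sets, 33.9% were called higher in this comparison and 31.3% lower. Every tested probe set of the members was called higher in B6TC than in ZR-75-1, as were 43% of all tested probe sets. Most of those of the members reached 6 only in B6TC and MDA-MB-231, so the filter favoured this direction. Levels under 6 lie near background, so the differences from ZR-75-1 may understate the change at all members except SPRED2. In RNA of whole cultures, less RNA per cell and fewer cells that express a gene cannot be told apart.

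**Figure D2:**
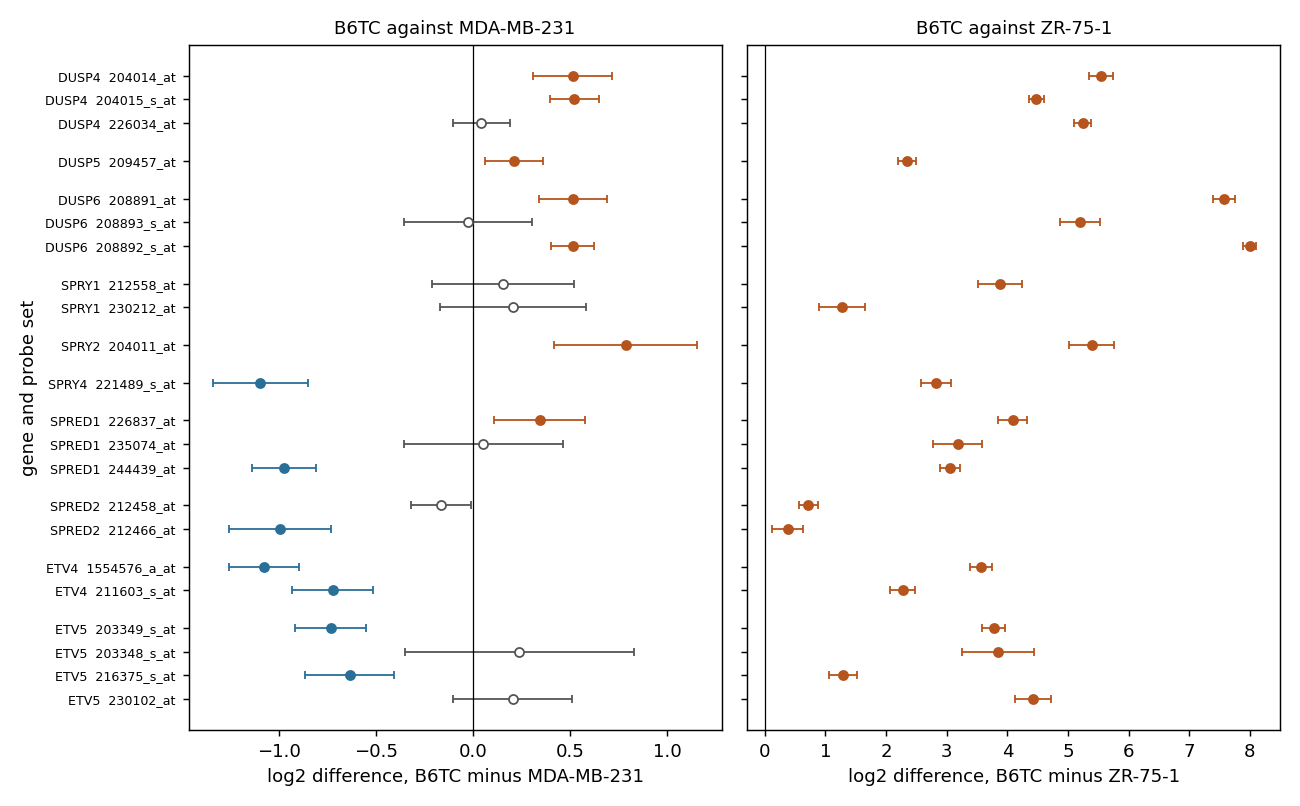
Log2 difference on the x axis, B6TC minus MDA-MB-231 at left and B6TC minus ZR-75-1 at right, for the 22 tested probe sets of the 10 genes on the y axis, with 95% confidence intervals from limma. Filled orange points were called higher in B6TC, filled blue points lower, and open points did not pass the test. At left 7 probe sets are higher and 7 lower, with SPRED1 on each side of 0, and at right all 22 are higher.

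The position of B6TC between the parental lines was next examined, since a fused cell carries material of each. At the brightest probe sets, DUSP4, DUSP5, DUSP6, SPRY2 and SPRED1 passed the test above each parental line, and SPRY4, ETV4 and ETV5 passed it below MDA-MB-231 and above ZR-75-1. SPRY1 (0.15, limma adjusted p = 0.428) and SPRED2 (−0.17, limma adjusted p = 0.0575) were not placed against MDA-MB-231. Other probe sets gave another place for SPRED1, where 244439_at was at −0.97 from MDA-MB-231, and for SPRED2, where 212466_at was at −0.99. For ETV5, 203348_s_at and 230102_at were at 0.24 and 0.20 and did not pass. Neither did DUSP4 at 226034_at (0.042, limma adjusted p = 0.592) nor DUSP6 at 208893_s_at (−0.025, limma adjusted p = 0.892). The place of these 2 genes above MDA-MB-231 thus depended on the probe set. How many of all genes passed above each parental line, or between the parental lines, was not counted. Of all genes, 36.5% were called higher than in MDA-MB-231 and 42.8% higher than in ZR-75-1. Nothing particular to the members is read from these places. With 0 set at the MDA-MB-231 mean and 1 at the ZR-75-1 mean, the means of the members ran from −0.17 at SPRY2 to 0.28 at SPRY4. ETV4 was at 0.23, SPRED2 at 0.19 and ETV5 at 0.16. Against the mean of the parental lines on the log2 scale, all 10 members were higher in B6TC, where 41.6% of all genes were called higher. This count is not independent of the filter, which every member except DUSP5 and SPRED2 passed only through B6TC and MDA-MB-231. The differences ran from 0.28 at SPRED2 (SE 0.060, limma adjusted p = 0.00170) and 0.87 at SPRY4 to 4.04 at DUSP6 (SE 0.068, limma adjusted p = 3.30e-11). The direction of SPRY4 and ETV4 depended on the scale. Against the mean of the unlogged parental levels, a comparison chosen after the data were seen and not tested, they were at −0.19 and −0.13, and the other 8 members ran from 0.20 at ETV5 to 1.73 at SPRY2. Of all genes, 51.0% lay above the mean of the log2 levels and 48.4% above that of the unlogged levels. The dimmer probe set of SPRED2, which passed the filter only through MDA-MB-231, was lower than the mean of the log2 levels, at −0.31 (limma adjusted p = 0.0170).

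The profiles most like those of the members with the widest range were sought among all tested genes, as the smallest root mean square distance over the 9 arrays after each profile was centered on its mean. For DUSP6 they were PLS3, an actin-bundling protein gene, at a distance of 0.093 on the log2 scale, TCEAL9 at 0.16 and MAGEA6, a cancer-testis antigen gene, at 0.18. For DUSP4 they were PLAU, which encodes the urokinase plasminogen activator, at 0.066, DOCK4 at 0.11 and MT1E, a metallothionein gene, at 0.11. For SPRY2 they were LINC02582 at 0.15, AOX1 at 0.16 and GBP1 at 0.19. With 9 arrays of 3 lines, such likeness rests mainly on the 3 line means.

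Of the other dual-specificity phosphatases of MAP kinases, 6 of 7 genes were tested. DUSP7, which like DUSP6 is a cytoplasmic phosphatase of ERK, was at 8.49, 8.50 and 8.50 on the arrays of B6TC, 7.76, 7.67 and 7.67 for MDA-MB-231 and 6.28, 6.42 and 6.14 for ZR-75-1. It was above MDA-MB-231 in B6TC by 0.79 (SE 0.066, limma adjusted p = 4.00e-06) and above ZR-75-1 by 2.22. DUSP1, a nuclear phosphatase of stress and growth factor responses, was higher by 0.36 and 2.13. DUSP2 exceeded MDA-MB-231 by 0.60 and lay below ZR-75-1 (limma adjusted p = 1.75e-05), with its B6TC and MDA-MB-231 means of 5.66 and 5.06 below the filter level. DUSP8 was lower in both comparisons, at −0.26 and −0.37. DUSP10 and DUSP16, which act mainly on p38 and JNK, did not pass against MDA-MB-231, at −0.074 and 0.12, and were at 1.13 and −1.45 from ZR-75-1, where both passed. DUSP9, at a mean of 3.94 in B6TC, was not tested. Together the list had 3 higher, 1 lower and 2 not called against MDA-MB-231 and 3 higher and 3 lower against ZR-75-1, with medians of 0.24 and 0.38. Of all genes, 36.5% were called higher and 28.5% lower than in MDA-MB-231, and 42.8% higher than in ZR-75-1. The share of all genes called lower than in ZR-75-1 is not given here. Nothing particular to the list is read from these counts.

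Of 14 other negative regulators of the pathway, 9 were tested, and 6 were higher than in MDA-MB-231, none was lower and 3 were not called, with a median of 0.33, where 36.5% of all genes were called higher and 28.5% lower. IL17RD, a membrane inhibitor of FGF signaling, was higher by 0.66 (SE 0.051, limma adjusted p = 2.66e-06), RASA2, a RAS GTPase activating protein, by 0.59 and CBL, a ubiquitin ligase that downregulates receptors, by 0.54. Against ZR-75-1, where 42.8% of all genes were called higher, 7 were higher and 1 lower, and the median was 1.30. ERRFI1, an inhibitor of EGFR, was higher by 4.03, IL17RD by 3.49 and RASA3 by 2.31. IL17RD and RASA3 reached 6 only in B6TC and MDA-MB-231, so the filter favoured their direction.
Of 25 genes listed for the kinases and adaptors of the cascade itself, 20 were measured and tested and 5 were not analysed here. Between B6TC and MDA-MB-231 6 were higher, 6 lower and 8 not called, with a median of 0.037 and a range from −0.60 to 0.74, and these counts are near the shares of all genes given above. MKNK2, a kinase that ERK activates, was higher by 0.74, ELK3, an ETS factor that ERK phosphorylates, by 0.73, and HRAS was lower, at −0.60. From ZR-75-1 9 were higher and 8 lower, where 42.8% of all genes were called higher, and the median was 0.068. ELK3 was higher by 4.99, RPS6KA3, a ribosomal S6 kinase activated by ERK, by 2.35 and KSR1, a scaffold of RAF and MEK, by 1.67. KSR1 reached 6 only in B6TC and MDA-MB-231, so the filter favoured its direction. Nothing particular to the cascade is read from these counts.

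All 13 other transcripts listed as known to follow ERK activity were tested. Against MDA-MB-231, 4 were higher, 4 lower and 5 not called, with a median of −0.10, and these counts too are near the shares of all genes (36.5% higher and 28.5% lower). The immediate early genes FOS and EGR1 lay below MDA-MB-231, at −2.34 (SE 0.083, limma adjusted p = 2.76e-08) and −2.20 (SE 0.097, limma adjusted p = 1.07e-07). FOS was at 4.45, 4.63 and 4.33 in B6TC against 6.80, 6.80 and 6.84 in MDA-MB-231, and EGR1 at 7.36, 7.33 and 7.30 against 9.57, 9.51 and 9.53. FOS reached the filter level of 6 only in MDA-MB-231, so the filter favoured its direction, and its B6TC level lies near background. MYC, a transcription factor of cell growth, was higher by 0.80 (SE 0.043, limma adjusted p = 2.96e-07), with B6TC at 10.70, 10.73 and 10.76 and MDA-MB-231 at 9.90, 9.91 and 9.98. FOSL1, an AP-1 factor stabilized by ERK, was at −0.18, which did not pass (limma adjusted p = 0.115). Against ZR-75-1, 11 were higher and 2 lower, with 42.8% of all genes called higher, and the median was 2.74. EREG, an EGFR ligand, was higher by 8.22, ETV1, the remaining PEA3 factor, by 6.05 and FOSL1 by 5.41. These genes, and EPHA2, HBEGF and LIF, reached 6 only in B6TC and MDA-MB-231. The filter thus favoured this direction, and the count of 11 is not independent of it. ETV1 was at −0.10 from MDA-MB-231, which did not pass (limma adjusted p = 0.256).
Among 14 other genes of the ETS family, ETV1 included again, 11 were tested. In B6TC 3 were higher than in MDA-MB-231, 3 lower and 5 not called, with a median of 0.066, and EHF, an epithelial ETS factor, was higher by 1.33 (SE 0.075, limma adjusted p = 4.15e-07) and ELF4 by 0.41. ETS1, at 0.53, did not pass (limma adjusted p = 0.0565), although its B6TC arrays, at 10.76 to 10.96, lay above those of MDA-MB-231, at 10.31 to 10.39. The ZR-75-1 arrays of ETS1, near background, had an SD of 0.58, which enters the shared estimate of the spread. Of all genes, 36.5% were called higher and 28.5% lower than in MDA-MB-231. From ZR-75-1 5 were higher and 5 lower, where 42.8% of all genes were called higher, and the median was −0.10. ETS1 was higher by 7.88 and EHF by 3.62, whereas SPDEF, a luminal ETS factor, was lower, at −3.24. SPDEF was also lower in MDA-MB-231 than in ZR-75-1, at −2.85. ETS1, EHF and ETV1 reached 6 only in B6TC and MDA-MB-231, so the filter favoured their direction. Nothing particular to this list is read from its counts.

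**Figure D3:**
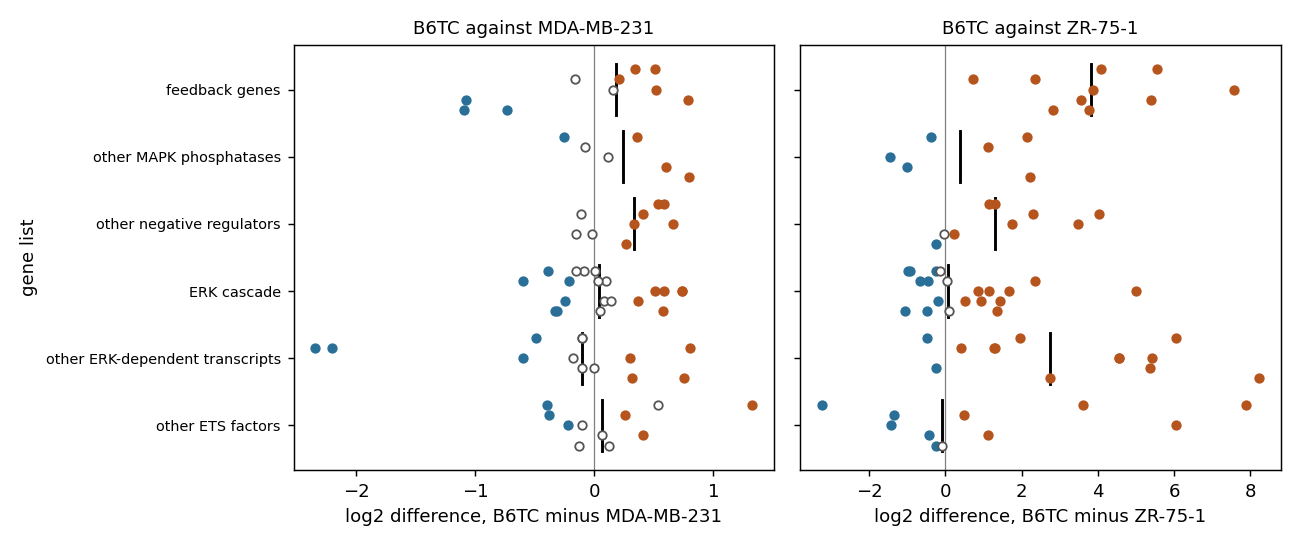
Log2 difference on the x axis, B6TC minus MDA-MB-231 at left and B6TC minus ZR-75-1 at right, for the tested genes of 6 lists on the y axis. Each point is 1 gene, orange where it was called higher in B6TC, blue where lower and open where it did not pass limma, and black bars are list medians. At right the feedback genes have a median of 3.83 and the ERK cascade one of 0.068, and at left each list lies on both sides of 0.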

How the data were processed

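RNA of the 3 lines, with 3 arrays each, was hybridized to Affymetrix U133 Plus 2.0 arrays. The deposited values are log2 expression levels of 54675 probe sets. The submitters' processing notes name Affymetrix Expression Console and RMA without versions, while the methods of the study name GCOS and GC-RMA, so the background correction is not settled. It changes low levels most. Probe sets with 1 gene symbol (41091, against 1801 with several and 11721 with none) were updated by gene identifier to the GRCh38.p14 gene table. The 62 control probe sets were left out. Probe sets that reached a log2 level of 6 on 3 or more of the 9 arrays were tested. Lines were compared in R 4.3.3 with limma 3.58.1, using 1 mean per line, least squares and moderated variances (6 residual and 3.68 prior degrees of freedom), with Benjamini-Hochberg adjustment within each comparison and calls at an adjusted p of 0.05 or less. The methods of the study name robust moderated statistics, which were run as an alternative. The fit was tested on simulated data. The precision is limited by the number of arrays.

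Members and gene lists were chosen with earlier results of these data known. Named genes were all members and, of each list, the 3 with the largest absolute difference in each pairwise comparison. All genes of lists with 8 or fewer were included. Of the marker lists only counts and means are given. Alternatives were other filters on level, robust regression, other variance models, scalings and choices of probe set, a fit to the compared lines only, a replicate block, a fold minimum of 2 and leaving out each array. The unlogged parental mean and the count of the shorter ETS core were added after the data were seen.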

Additional observations from a re-analysis of the deposited data

How the results depend on the processing

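The direction of all 10 genes against ZR-75-1, for B6TC and for MDA-MB-231, and all those calls were kept under every alternative run, except that SPRED2 did not reach 2-fold. SPRY4 is read only by a probe set ending in _s_at and had no value without these. Against the mean of the parental lines no fit to the compared lines only was possible. Between B6TC and MDA-MB-231, 5 genes were called lower when the probe sets of each gene were averaged, and SPRED1 turned to −0.19 and SPRED2 was at −0.58. In that setting SPRED2 was at −0.017 from the mean of the parental lines. Against the mean of unlogged parental levels, chosen after seeing the data, SPRY4 and ETV4 turned to −0.19 and −0.13, with no test. Without probe sets ending in _x_at or _s_at 1 gene was called lower and ETV5 turned to 0.20. With a fold minimum of 2, 0 genes were called higher by limma than in MDA-MB-231, of the 5 that passed without it, and SPRY4 and ETV4 alone were called lower. DUSP5 did not pass without the filter on level (limma adjusted p = 0.0557) or with a second quantile normalization (limma adjusted p = 0.0516), and its adjusted p ran up to 0.0705. SPRED2 passed with a level minimum of 7 (limma adjusted p = 0.0466), with robust and trended variances (0.0249) and with that normalization (0.0137). The cause of these changes was not tested. Leaving out each array in turn gave 4 to 5 members called higher and 3 to 4 called lower than in MDA-MB-231. Of all tested features, the calls between B6TC and MDA-MB-231 were 13742, and 7122 with averaged probe sets, 7507 without the _x_at and _s_at ones and 813 with the fold minimum. In the same order they were 17650, 9285, 9874 and 6484 from ZR-75-1, 17665, 9252, 9858 and 6635 for MDA-MB-231 against ZR-75-1, and 16641, 8760, 9255 and 3043 from the mean of the parental lines. The first 2 of these settings test fewer features.
Replicate numbers did not pair the arrays, since the deviations of same-numbered arrays correlated at −0.10 to 0.18. With the replicate block, 5 members were called higher and 3 lower than in MDA-MB-231, and all 10 higher than in ZR-75-1. Levels near background in ZR-75-1 limit the differences from that line.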
